A study of Mus musculus with 5 samples.

Results

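The baseline described here is the gene expression profile of sorted bone marrow stem and progenitor cells from control rtTA mice, measured on 3 arrays of a series of 5. The other 2 arrays came from MSI2-inducible mice and entered no value. All 3 control samples were bone marrow cells of strain C57BL/6 with the genotype control rtTA mouse. rtTA is the doxycycline-dependent transactivator that switches on an inducible transgene, and the label of these mice names no MSI2 transgene. The labels give neither the promoter that drives rtTA, nor whether doxycycline was given, nor age or sex. The sample labels call the cells LSK, low for lineage antigens and positive for both Sca1 and Kit. The design text of the series instead gives LK, a gate on Kit-positive cells without Sca1. The labels do not settle which gate was used. After flow cytometric sorting the cells were lysed in RLT buffer with beta-mercaptoethanol, and the RNA was linearly amplified, labelled with biotin and hybridised to an Affymetrix mouse expression array. No label says that the 3 arrays came from separate mice, so the spread between them may be technical, and 3 arrays limit the precision of every value.

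Blood formation starts from rare stem cells in the bone marrow that carry Kit, the receptor for stem cell factor, and lack the antigens of mature blood cells. As these cells turn into progenitors they take on low levels of genes of several blood lineages before they commit to one of them. The LSK population holds the long-term stem cells and the earliest multipotent progenitors, and the LK population holds most progenitors already bound for the myeloid and erythroid lineages. Which of these genes are read out, and how steadily, sets the baseline against which a perturbation of such cells is read.

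For each gene the probe set with exactly 1 gene symbol and the highest mean over the 3 arrays was taken, which gave 18193 genes, and genes were ranked by mean log2 signal. Values are log2 intensities, and 1 unit is a 2-fold difference. Where 3 values are given, they belong to control arrays 1, 2 and 3 in that order, and ± gives the SD over the 3 arrays. The range of a gene is its highest minus its lowest array, and the widest, narrowest or steadiest gene of a group is named among its genes above the reference level defined next. Probe sets bind with different strength, so a rank orders signals and not RNA amounts, and a gene with no signal may have a poor probe set. As a reference for background, the 95th percentile of 168 genes of other organs (brain, liver, muscle, skin, testis and others) was 6.41, an intensity of 84.9. Of all genes 9113 lay above this reference level (50.1%), and 8499 lay above it in each of the 3 arrays.

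**Figure D1:**
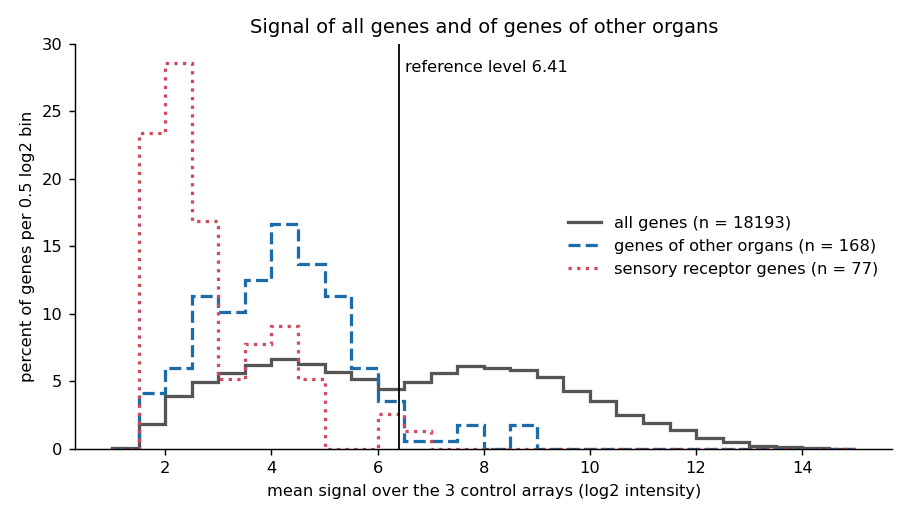
Percent of genes in each 0.5-wide bin of mean log2 intensity over the 3 control arrays, for all 18193 genes (solid), 168 genes of other organs (dashed) and 77 sensory receptor genes (dotted); the vertical line is the reference level of 6.41. The genes of other organs have a median of 4.22 and the sensory receptor genes of 2.45, against 6.42 for all genes.

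The middle gene of the profile had a signal of 6.42, and the 25th and 75th percentiles were 4.19 and 8.65. A signal above 10 was reached by 2012 genes (11.1%), above 12 by 312 (1.71%) and above 14 by 8. The 9 genes of other organs above the reference level were Camk2a at 8.92, Star at 8.67, Mbp at 8.67, Krt10 at 7.84, Prm1 at 7.62, Afp at 7.58, Tnni3 at 7.21, Cela1 at 6.75 and Pomc at 6.46. Among the members of the gene groups described below, those closest above the reference level were Mvd at 6.43, Nsdhl at 6.44, Ppard at 6.45, Apoe at 6.48 and Mvk at 6.50. The closest below were Egr3 at 6.40, Sult1a1 at 6.39, Ccne2 at 6.35, Mitf at 6.35 and Ifit3 at 6.34. A gene this close to the reference level has no settled side. Array 1 was the highest of the 3 in 36.7% of the genes above the reference level, array 2 the highest in 34.8% and the lowest in 41.5%, and over all genes array 2 was the highest in 39.7%. A range over 1 was seen in 10.9% of all genes, in 6.55% without array 1, in 2.84% without array 2 and in 6.89% without array 3. Counts of these kinds in the groups below stand beside these shares.

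Of the 5 markers of the sorted cells, 4 were measured and all lay above the reference level in every array. Kit read 9.19, 9.35 and 9.66 (mean 9.40 ± 0.24, rank 2970), and both of its probe sets lay above the reference level. Hlf, a transcription factor of long-term stem cells, read 11.17, 10.87 and 11.18 (mean 11.07 ± 0.18, rank 848). Mecom, which encodes the zinc finger factor EVI1, read 9.84, 9.88 and 9.98 (mean 9.90 ± 0.07, rank 2166), with 1 of its 3 probe sets above the reference level. Myc, the growth regulator that drives ribosome production and cell cycle entry, read 12.16, 11.99 and 12.05 (mean 12.06 ± 0.08, rank 286). The 3 arrays thus lay within 0.50 of each other for each of these markers. Ly6a, the gene of Sca1, has no probe set with a single symbol in the annotation used and was not analysed here, so the arrays do not settle the gate.

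Surface genes used to divide stem and progenitor cells were largely present. Of 15 such genes measured, 13 lay above the reference level. Cd48 (10.72 ± 0.14), Cd34 (10.67 ± 0.27) and Procr, the endothelial protein C receptor of stem cells (10.54 ± 0.28), lay above the 90th percentile of all genes, 10.13. Flt3, the cytokine receptor of multipotent progenitors, read 10.19 ± 0.20, and Slamf1, the stem cell antigen CD150, read 7.67 ± 0.31. Fcgr3, which marks granulocyte and monocyte progenitors in the LK gate, read 8.58, 6.92 and 8.25, with array 2 lowest. Esam, an adhesion molecule of stem cells and endothelium, read 7.21, 8.75 and 7.69, with array 2 highest. These were the 2 genes of the group with a range over 1, and without array 2 there were none. Il7r, the receptor of lymphoid progenitors, was not above the reference level at 6.10 ± 0.48, and Cd27 was the steadiest at 11.14 ± 0.11.

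Antigens of mature lineages were mostly near background, as 2 of 9 measured lay above the reference level. These were Ptprc, the pan-leukocyte antigen CD45, at 11.07 ± 0.14, and Nkg7, a granule membrane gene, at 9.44 ± 0.48. The T cell genes Cd3e (2.46 ± 0.16) and Cd8a (4.64 ± 0.10) and the myeloid integrin Itgam (5.35 ± 0.37) were all below the reference level, as were Cd4 at 5.46, Cd79a at 4.73 and Cd5 at 3.55. In a bulk sample, fewer cells of a type and less RNA per cell cannot be told apart, here and in every group that follows.

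The genes with the strongest signals made ribosomes. Of the 20 highest genes 12 encode ribosomal proteins, and of the 100 highest 31 do. The order ran from Rpsa at 14.34, Rpl13a at 14.24, the nuclear long non-coding RNA Malat1 at 14.20 and Rpl41 at 14.18 to the mitochondrial pore gene Vdac1 at 14.06, Pebp1 at 14.05, Rps18 at 14.01 and Rps3 at 14.01. Below them came a gene known here only by an accession-like symbol, then Hnrnpab, an RNA-binding protein, at 13.96, Rps29 at 13.92, Rpl35 at 13.91, Rpl38 at 13.90 and Rplp2 at 13.88. Ran, the GTPase of nuclear transport, at 13.86, Rps28 at 13.85, Tuba4a at 13.84, Rpl4 at 13.77, Gas5, a snoRNA host gene, at 13.76 and Rps3a1 at 13.76 closed the 20. The 3 arrays had 17 genes in common among their own highest 20, and 82 among their own highest 100. Of the 20 probe sets, 10 carry the suffix _x_at, which marks possible cross-hybridisation, as do 31 of the 100 highest and 652 of all 18193 genes. The probe set of Malat1 ends in _s_at and is not in that count. Values given below without cross-hybridising probe sets leave out both kinds. The only other probe set of Rpsa read 6.66.

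Ribosomal protein genes also varied little between arrays. Of 49 measured, 43 lay above the reference level, with a median of 13.16 and a median range of 0.13 between arrays, and none had a range over 1. All genes with a signal from 10.13 to 14.34 had a median range of 0.27, and 1.65% of them a range over 1. Rpsa read 14.39, 14.35 and 14.28, Rps14 13.20, 13.27 and 13.33 and Rplp0 13.26, 13.20 and 13.26. Rps19, mutated in Diamond-Blackfan anaemia, read 11.96 ± 0.20 and Rps6, the target of S6 kinase, 9.76 ± 0.10. Rpl6 had the narrowest range, 0.02, and Rpl22l1, the paralogue of Rpl22, the widest of the genes above the reference level at 0.61. The 6 members not above the reference level were Rps4l at 5.74, Rps27 at 5.69, Rpl3l at 4.65, Rpl37 at 3.24, Rps16 at 3.12 and Rpl39l at 3.02, and of these Rps27, Rpl37 and Rps16 encode proteins of every ribosome. Ribosomal protein genes have many near-identical pseudogenes, so signal may be shared between copies.

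Ribosomal protein genes are known for a pyrimidine-rich start of transcription, and the starts of the highest ones with a single promoter window are shown for that reason. They run from base -20 to base 20 around the annotated start, 5′ to 3′ on the gene's strand, from RefSeq on build GRCm38.p6, with each CTTTC in capitals.
Rpsa (chr9:120127746-120127785, plus strand): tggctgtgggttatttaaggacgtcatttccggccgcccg
Rpl13a (chr7:45128726-45128765, minus strand): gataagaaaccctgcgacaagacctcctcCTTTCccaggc
Rpl41 (chr10:128549149-128549188, minus strand): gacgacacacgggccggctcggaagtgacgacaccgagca
Rps18 (chr17:33955646-33955685, minus strand): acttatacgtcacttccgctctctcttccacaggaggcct
Rps3 (chr7:99483690-99483729, minus strand): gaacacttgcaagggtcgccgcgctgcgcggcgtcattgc
Rpl35 (chr2:39005112-39005151, minus strand): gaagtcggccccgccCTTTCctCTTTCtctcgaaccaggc
Rpl38 (chr11:114668560-114668599, plus strand): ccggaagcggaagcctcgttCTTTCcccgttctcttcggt
Rplp2 (chr7:141447631-141447670, plus strand): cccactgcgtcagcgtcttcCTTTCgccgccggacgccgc

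The run CTTTC, read on the gene's strand only, occurs in 4 of these 8 starts, those of Rpl13a, Rpl35, Rpl38 and Rplp2. Over all 36 ribosomal protein genes with 1 window it was found in 13 (36.1%), against 4.56% of the 10742 protein-coding genes of the profile with 1 window and 5.49% of all 32841 windows. The ETS-type motif CCGGAAG, on either strand, was found in 16 of the 36 windows (44.4%), against 11.3% of those genes and 6.91% of all windows. These matches are descriptions of the letters and were not tested.

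Genes known for stem cells were broadly expressed, with 44 of 51 above the reference level and a median of 8.52, against 50.1% of all genes. Among their transcription regulators, Lmo2, an adaptor of the blood stem cell complex, read 12.75, 12.85 and 12.85, Erg, an ETS factor, 12.12, 12.44 and 12.35, and Hoxa9 11.48, 11.65 and 11.42. Gata2 read 10.32 ± 0.24, Runx1 10.23 ± 0.19 with all 6 of its probe sets above the reference level, Mycn 10.21 ± 0.42, Mllt3 10.05 ± 0.36, Meis1 9.28 ± 0.45, Prdm16 9.07 ± 0.28 and Tal1, the partner of Lmo2, 8.52 ± 0.45. Msi2, the RNA-binding protein studied in this series, read 11.67, 11.76 and 11.74 (mean 11.72 ± 0.04, rank 457), with 5 of its 8 probe sets above the reference level. Mllt3 without cross-hybridising probe sets read 8.05.

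Of the other stem cell genes, Ifitm1 (11.25 ± 0.13), an interferon-induced membrane gene, Angpt1, the ligand of the receptor TIE2 (10.25 ± 0.17), and Vwf, a clotting factor gene that marks platelet-biased stem cells (8.64 ± 0.07), varied little. Socs2 read 7.83 ± 0.49, or 6.58 without cross-hybridising probe sets, and Fgd5, a gene used to label stem cells, 7.11 ± 0.18. Tek, the TIE2 receptor, read 6.73, 8.28 and 7.21, with array 2 highest, and Cdkn1c, the quiescence inhibitor p57, read 6.49, 7.61 and 7.78, with array 1 lowest. Of the 51 stem cell genes 6 had a range over 1. The count was 3 without array 1, 3 without array 2 and 5 without array 3. Their summed intensity was 52500, 54700 and 56000. Ptpn21 was the steadiest above the reference level, with a range of 0.05, and Tek the widest, with 1.55.

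Of 33 Hox genes, which set stem cell self-renewal and body position, 8 lay above the reference level, all of them in the Hoxa and Hoxb clusters. Hoxa9 led at 11.52 ± 0.12, followed by Hoxa3 at 9.41 ± 0.12 and Hoxb4 at 8.56 ± 0.26, the latter a known driver of stem cell expansion. Hoxa10 read 7.53 ± 0.45, Hoxa5 7.26 ± 0.66, Hoxb3 7.18 ± 0.62, Hoxa7 6.86 ± 0.30 and Hoxb5 6.61 ± 0.46. The other 25 were not above it, and these included every measured Hoxc and Hoxd gene. Of 8 partner genes 5 lay above the reference level, among them Meis1 at 8.79, 9.65 and 9.40 and Pbx3 at 7.08, 5.71 and 7.20, which had the widest range of the group above the reference level. In the group of 41 there were 7 genes with a range over 1. The count was 2 without array 1, 1 without array 2 and 6 without array 3.

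Lymphoid priming genes covered a wide span of signal. Dntt, the DNA polymerase that adds bases at antigen receptor joints, read 11.84, 11.99 and 12.08 (rank 326), and the lymphoid regulators Ikzf1 (10.17 ± 0.05), Bcl11a (10.12 ± 0.25) and Satb1 (9.52 ± 0.07) were steady. Below the reference level were Igll1 (5.40 ± 0.71), part of the surrogate light chain, the B cell factors Ebf1 (4.71 ± 0.04) and Pax5 (4.46 ± 0.18), and the recombinase gene Rag1 (3.95 ± 0.28). Rag2, the partner of Rag1, was above it on average at 7.42, 6.39 and 7.68, as were Ighm, the IgM heavy chain, at 10.82, 9.84 and 9.58 and Cd79b at 7.49 ± 0.05. Vpreb1, the other surrogate light chain gene, read 7.24, 4.60 and 8.36, with array 2 below background and the other two above it. In all 17 of 26 lymphoid priming genes lay above the reference level, the steadiest being Xrcc6 with a range of 0.08 and the widest Vpreb1 with 3.76.

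Genes of mature lymphocytes were mostly low. Of 15 B cell genes 5 lay above the reference level, including Cd74, the invariant chain of MHC class II, at 8.70 ± 0.14 and Cd79b, with the narrowest range at 0.08. Cd72 was at 9.86, Xbp1, a plasma cell factor, at 8.04 and H2-Aa, whose range of 0.40 was the widest of the 5, at 9.12. Cd79a (4.73 ± 0.09) and Ms4a1, the antigen CD20 (2.73 ± 0.23), were not above it. Jchain, which joins antibody units in plasma cells, read 7.76, 3.88 and 4.58, so that only array 1 was above the reference level. The other immunoglobulin genes with such a pattern are given with the widest ranges below. Of 19 T and NK cell genes 4 lay above it: Cd247 at 9.51, Nkg7 at 9.44, which had the widest range of the 4 at 0.95, Lat at 8.43 and Prf1 at 7.99, the steadiest with a range of 0.20. Cd3d (4.38 ± 0.09), Bcl11b (5.32 ± 0.22), Ncr1 (2.92 ± 0.48) and Cd3e were below it in every array, and Gzma, a granzyme, read 5.71, 3.72 and 3.67.

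All 20 measured genes of the granulocyte and monocyte progenitor group lay above the reference level, against 50.1% of all genes. The group holds regulators, receptors and other genes such as Cd33, Ly86 and Ctsc. Myb, which keeps progenitors dividing, read 12.53, 12.47 and 12.53 (rank 167). Gfi1, a repressor needed for neutrophils, read 10.76 ± 0.19, Csf1r, the receptor of macrophage growth factor, 9.60 ± 0.40, Cebpa 8.87 ± 0.18 and Irf8, a monocyte factor, 7.93 ± 0.23. Csf3r, the receptor of G-CSF, read 7.80 ± 0.28 and Spi1, which encodes PU.1, 7.23 ± 0.38. Cebpg was the steadiest with a range of 0.05, and Fcgr3 the widest with 1.66.

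Primary granule genes are those that myeloid progenitors switch on first. All 14 measured genes of this group, which also holds other genes such as Calr and Hk3, lay above the reference level, with a median of 9.66. Mpo, the myeloperoxidase gene, read 13.21, 12.81 and 13.12 (rank 66), and Ctsg, cathepsin G, 12.24, 11.01 and 11.79. Elane, neutrophil elastase, read 11.83, 10.09 and 11.18, and Prtn3, proteinase 3, 10.54, 9.66 and 9.81. Ms4a3, a membrane gene of these progenitors, read 10.26, 8.14 and 9.49, and Fcnb, ficolin B, 8.92, 6.82 and 8.24. Array 1 was highest in 14 of the 14 genes, against 36.7% of genes above the reference level, and array 2 lowest in 10, against 41.5%, and the summed intensity was 33300, 19500 and 26700. A range over 1 was seen in 5 of 14, against 10.2% of the genes above the reference level, and in 1 without array 2. Ctsc, a protease, was the steadiest with a range of 0.24, and Ms4a3 the widest with 2.12.

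Genes of later neutrophils were also well above background although the cells are labelled as low for lineage antigens. Of 21 measured 16 lay above the reference level, with a median of 8.28. S100a9 read 13.59, 12.75 and 13.59 (rank 45) and its partner S100a8 12.64, 11.71 and 12.60. The secondary granule genes were also lowest in array 2: Camp 11.75, 11.02 and 11.69, Ngp 11.12, 9.87 and 11.21, Ltf, lactoferrin, 10.75, 9.60 and 10.80, and Lcn2, lipocalin 2, 8.83, 7.05 and 8.95. Lyz2, lysozyme, which monocytes share, read 12.13, 12.36 and 12.43, with array 1 lowest. Mmp8, a collagenase of the latest stage, was below the reference level at 4.42 ± 0.54, as were Cxcr2 at 4.96 and Mmp9 at 4.92. Array 2 was lowest in 17 of the 21 genes, against 32.6% of all genes, and the summed intensity was 37500, 23300 and 38300. A range over 1 was seen in 12 of 21, and in 1 without array 2, between arrays 1 and 3. Padi4 was the steadiest with a range of 0.25 and Wfdc21 the widest of those above the reference level with 2.00.

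TATA boxes are known from the promoters of many tissue-restricted genes, and some granule gene promoters are shown for that reason. For the 6 genes of the granule lists with the widest ranges above the reference level and a single promoter window, the 60 bases before the annotated start are shown (RefSeq, build GRCm38.p6, 5′ to 3′ on the gene's strand). Capitals mark a TATAA that begins between bases -40 and -20, where a TATA box lies.
Epx (chr11:87875537-87875596, minus strand): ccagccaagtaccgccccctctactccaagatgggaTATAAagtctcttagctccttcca
Ms4a3 (chr19:11640852-11640911, minus strand): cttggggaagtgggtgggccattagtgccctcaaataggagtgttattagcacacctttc
Fcnb (chr2:28084879-28084938, minus strand): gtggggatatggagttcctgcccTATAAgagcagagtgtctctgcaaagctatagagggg
Lcn2 (chr2:32387740-32387799, minus strand): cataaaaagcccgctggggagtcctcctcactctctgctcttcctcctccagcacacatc
Elane (chr10:79886252-79886311, plus strand): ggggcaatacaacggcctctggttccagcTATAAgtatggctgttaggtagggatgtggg
Cd177 (chr7:24760312-24760371, minus strand): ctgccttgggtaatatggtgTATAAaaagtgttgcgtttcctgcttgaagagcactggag

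Such a TATAA stands in 4 of these 6 windows, those of Epx, Fcnb, Elane and Cd177. The genes next in range, Pglyrp1, Ngp, Ctsg, Ltf, Ifitm6 and Itgb2l, are not shown and held none in that place. It was found in 6 of 19 neutrophil genes (31.6%), 3 of 12 primary granule genes (25.0%) and 3 of 13 mast cell, basophil and eosinophil genes (23.1%), against 4.53% of the 10742 genes and 3.52% of all windows. Genes of other organs held it in 37 of 119 windows (31.1%), so it is not particular to granule genes.

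Mast cell, basophil and eosinophil genes included some of the widest differences between arrays. Of 19 measured 8 lay above the reference level. Prg2, the eosinophil major basic protein, read 9.21, 3.62 and 8.67, and Epx, eosinophil peroxidase, 8.69, 3.78 and 7.75. In both, array 2 lay below the reference level and arrays 1 and 3 above it. The mast cell protease Cpa3 (7.26 ± 0.13) and Hdc, the histamine-forming enzyme (7.93 ± 0.47), were above it in every array. Mcpt8, a basophil protease, read 6.37, 4.73 and 6.37, Fcer1a 6.29, 5.18 and 5.88, and Ms4a2 6.01, 5.22 and 6.95. A range over 1 was seen in 9 of 19 genes, and in 2 without array 2, and the summed intensity was 10600, 7630 and 9810. The steadiest above the reference level was Cpa3, with a range of 0.26.

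Of 26 monocyte and macrophage genes 14 lay above the reference level, a share near the 50.1% of all genes, with a median of 6.71. C1qb read 7.48 ± 0.36, but C1qa (4.60 ± 0.10), which encodes another chain of the same complement protein, was not above the reference level. With cross-hybridising probe sets left out, C1qb read 4.26. Ccr2, the chemokine receptor of monocytes, read 6.63 ± 0.22, and Siglech (5.68 ± 0.18), Itgax (4.87 ± 0.36) and Adgre1, the macrophage antigen F4/80 (3.42 ± 0.31), were below. None of the 26 had a range over 1. Bst2 was the steadiest, with a range of 0.02, and Hmox1 the widest above the reference level with 0.77.

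Of 22 megakaryocyte genes measured 14 lay above the reference level. Pf4, a platelet chemokine, read 10.05, 9.45 and 9.54, and the integrins Itgb3 and Itga2b read 8.66 ± 0.50 and 8.12 ± 0.23. Gp9, a subunit of the von Willebrand receptor, read 6.81 ± 0.11, whereas its partner Gp1bb (5.33 ± 0.32) and the platelet chemokine Ppbp (5.05, 3.49 and 5.09) were not above the reference level. Mef2c had the narrowest range, 0.08, and Plek, a platelet kinase substrate, the widest of the genes above the reference level, 1.14.

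Of 36 erythroid genes 23 lay above the reference level, with a median of 7.33. Among globin, haem and membrane genes it was 10 of 20, the same share as the 50.1% of all genes. Car2, carbonic anhydrase 2, read 12.84, 12.97 and 12.95 (rank 86), Tfrc, the transferrin receptor, 9.93 ± 0.11, and Car1 10.45, 9.22 and 9.59. Gata1, the master regulator of red cells, read 7.41 ± 0.28 and Epor, the erythropoietin receptor, 6.93 ± 0.34. Klf1, the activator of adult globin genes, read 7.83, 5.72 and 6.79, so that array 2 was below the reference level. Alas2 (5.61 ± 0.22), which starts haem synthesis in red cells, and Hba-a1, alpha globin (4.39 ± 0.30), were below the reference level, and Slc4a1, the band 3 membrane protein, read 6.19, 3.72 and 7.05. The widest range above the reference level was 2.12 in Klf1 and the narrowest 0.08 in Ppox. The summed intensity of the 36 erythroid genes was 27900, 26800 and 27300.

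Genes of endothelium and stroma, which the sort should leave out, were above the reference level in 5 of 24 cases. Pecam1, which blood cells also carry, read 8.53, 7.22 and 8.52. Cxcl12, the niche chemokine, read 6.33, 8.79 and 6.95, and Cdh5, the endothelial cadherin, 4.15, 6.88 and 3.89, and in both array 2 stood highest. The endothelial receptor Kdr (4.60 ± 0.07), the collagen gene Col1a1 (5.16 ± 0.26) and Sparc (6.05 ± 0.11) were not above it in any array. Their summed intensity was 1860, 2170 and 1780. The remaining genes above the reference level were Tie1, which the stem cell group also holds, at 8.54, Pdgfrb at 8.24 and Emcn at 7.76. Emcn was the steadiest with a range of 0.24.

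**Figure D2:**
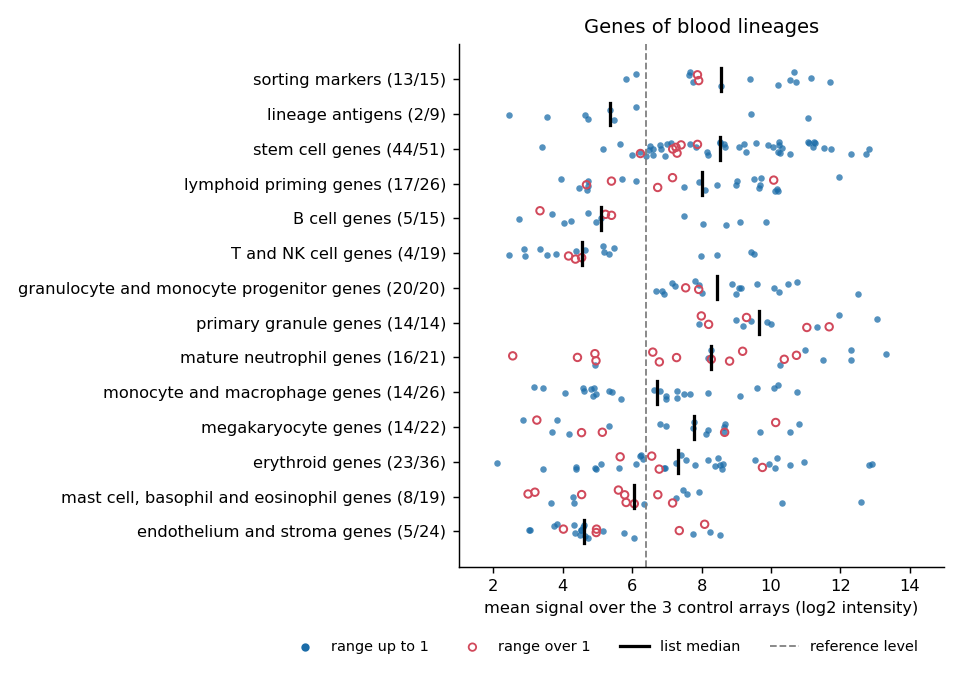
Mean log2 intensity over the 3 control arrays for each measured gene of 14 groups of lineage genes; brackets give genes above the reference level of genes measured, open circles are genes with a range over 1 between arrays, bars are group medians and the dashed line is the reference level of 6.41. Open circles gather in the mature neutrophil (12 of 21) and the mast cell, basophil and eosinophil groups (9 of 19), and the B cell and T and NK cell medians (5.09 and 4.54) lie below the line.

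Among regulators, the Myc network was above the reference level in 13 of 16 genes, and none had a range over 1. Max, the obligate partner of Myc, read 8.08 ± 0.46, and Mxd4, a repressor that competes for Max, 11.46 ± 0.12. Fbxw7, which marks the Myc protein for breakdown, read 9.39 ± 0.27. Mycn, as given above, was present together with Myc, while Mycl was not above the reference level at 4.46. Of the genes above the reference level Mnt was the steadiest with a range of 0.11, and Max the widest with 0.88.

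The Musashi and Notch group had 15 of 26 genes above the reference level. Msi1, the paralogue of Msi2, was not above it at 5.75 ± 0.24. Numb, the Notch inhibitor whose translation Musashi proteins are known to repress, read 8.34, 8.36 and 8.41. Of the Notch receptors, Notch2 read 12.01, 12.12 and 12.22 (rank 268) and Notch1 9.43, 10.07 and 9.47, while Notch3 and Notch4 were not above the reference level at 4.54 and 5.05. Rbpj, the DNA-binding partner of Notch, read 8.20 ± 0.46, and the target gene Hes1 was below the reference level at 5.10 ± 0.16. Aph1a, part of the protease that releases Notch, had the widest range above the reference level (8.99, 7.91 and 9.04), and Maml1 the narrowest, 0.03. A range over 1 was seen in 5 of the 26, and in 0 without array 2, where 2.84% of all genes had one.

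Chromatin regulators were nearly all present, with 45 of 47 above the reference level, against 50.1% of all genes, and a median of 9.26. A range over 1 was seen in 1 of the 47 (2.13%). Of all genes with a signal from 9.06 to 10.13, where that median lies, 4.51% had one. Ezh2, the methyltransferase of polycomb complex PRC2, read 10.52, 10.51 and 10.52 and had the narrowest range. Its relative Ezh1 read 8.22 ± 0.38, the polycomb gene Bmi1, needed for self-renewal, 8.91 ± 0.26, and Cbx7 6.83 ± 0.32. The DNA methyltransferases Dnmt1 (12.54 ± 0.07, or 10.61 without cross-hybridising probe sets), Dnmt3b (10.16 ± 0.07) and Dnmt3a (10.09 ± 0.42) were all present, with Dnmt3l not above the reference level at 4.83. Tet2 read 8.92 ± 0.14, Asxl1 9.70 ± 0.03 and Kmt2a 9.33 ± 0.02. Pcgf1 had the widest range, 1.40, and Cbx8 was the other gene not above the reference level at 5.57.

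Cytokine receptors and their kinases were above the reference level in 40 of 45 cases. Il6st, the shared receptor chain gp130, read 9.75 ± 0.17, Ifngr1 8.78 ± 0.27, and Jak1 9.20 ± 0.13. Stat3 read 10.15, 9.96 and 9.88, whereas Stat5a read 10.22, 9.18 and 10.31, with array 2 lowest. Il3ra, the receptor chain for interleukin 3, was not above the reference level at 5.24 ± 0.01. Socs3, a feedback inhibitor of cytokine signalling, had the widest range at 6.07, 8.38 and 6.39, and of the genes above the reference level Tnfrsf1a had the narrowest, 0.04. A range over 1 was seen in 6 of the 45, and in 0 without array 2, where 2.84% of all genes had one.

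Homing genes were led by Cxcr4, the receptor of Cxcl12, at 11.58, 11.57 and 11.60, the steadiest of the group. The integrins Itga4 (9.98 ± 0.34) and Itgb1 (9.37 ± 0.25), the selectin ligand gene Selplg (8.98 ± 0.14) and the hyaluronan receptor Cd44 (8.76 ± 0.06) were all above the reference level, as were 14 of 20 genes in the group. Esam had the widest range above it.

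Cell cycle genes were strongly present. Among G1 and quiescence genes 28 of 33 lay above the reference level. The cyclin Ccnd2 read 12.13 ± 0.09 with all 7 of its probe sets above the reference level, Ccnd1 9.30 ± 0.17 and Ccnd3 8.56 ± 0.16, and the kinases Cdk6 and Cdk4 read 11.40 ± 0.14 and 11.01 ± 0.26. Foxo3, a guard of quiescence, read 11.21 ± 0.06 and had the narrowest range, 0.12. Txnip, which limits glucose uptake, read 11.34, 10.17 and 11.47. Of the kinase inhibitors, Cdkn1b read 9.27 ± 0.27, Cdkn2c 8.53 ± 0.41 and Cdkn1a, the p53 target p21, 8.07, 6.55 and 7.71, the widest of the genes above the reference level. Cdkn2a, the senescence locus, was not above the reference level at 3.88 ± 0.15.

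All 28 S phase genes and all 29 mitosis genes lay above the reference level, with medians of 10.61 and 9.55. Pcna, the replication clamp, read 12.68 ± 0.08, the helicase genes Mcm5 and Mcm2 11.11 ± 0.24 and 9.72 ± 0.39, and Rrm2, which makes deoxynucleotides, 11.56 ± 0.18, or 10.28 without cross-hybridising probe sets. Tyms read 7.89 ± 0.22. No S phase gene had a range over 1, against 1.65% of all genes with a signal from 10.13 to 14.34, where their median lies. Rpa2 had the narrowest range, 0.11, and Pola1 the widest, 0.91. Of the mitosis genes, Mki67 read 12.59, 12.52 and 12.59, Ccna2 11.16 ± 0.16, Top2a 10.63 ± 0.18, Cdk1 9.66, 9.04 and 9.64 and Plk1 7.46, 8.30 and 7.26. Array 2 was lowest in 21 of the 29 mitosis genes, against 41.5% of genes above the reference level, with a median deviation of -0.16 from the mean of the arrays. It was highest in 6, Plk1 among them, against 34.8% of genes above the reference level. Cenpe had the narrowest range, 0.02, and Ttk, the spindle checkpoint kinase, the widest, 1.21.

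Mitosis genes are known for CCAAT boxes, bound by NF-Y, and so are the sterol genes described below. The stretches around the match nearest the start are shown for the named genes of the mitosis list with 1 promoter window and a match, with CCAAT or its reverse complement ATTGG in capitals (RefSeq, build GRCm38.p6, 5′ to 3′ on the gene's strand).
Mki67 (chr7:135716498-135716538, minus strand): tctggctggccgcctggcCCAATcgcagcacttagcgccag
Top2a (chr11:99024225-99024265, minus strand): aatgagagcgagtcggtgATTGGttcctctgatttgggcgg
Cdk1 (chr10:69352938-69352978, minus strand): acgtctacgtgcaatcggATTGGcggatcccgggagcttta
Plk1 (chr7:122159403-122159434, plus strand): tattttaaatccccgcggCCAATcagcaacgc

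A CCAAT on either strand stood in 20 of 23 mitosis windows (87.0%), against 36.5% of the 10742 genes and 33.9% of all windows. For S phase genes it was 13 of 20 (65.0%).

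Early response genes, which cells switch on soon after a stimulus, were mostly higher in array 2. Of 25 measured 19 lay above the reference level. Fosb read 8.72, 10.50 and 8.35, the widest range of the group, Klf2 7.75, 9.54 and 7.88, Egr1 10.17, 11.10 and 10.23, and Fos 11.48, 12.08 and 11.50. Jun (12.54, 12.88 and 12.38), Zfp36, an RNA decay factor (12.14, 12.80 and 12.27), Dusp1 (11.77, 12.13 and 11.67) and Ier2 (8.11, 8.69 and 8.06) were also highest in array 2. Array 2 was highest in 22 of the 25, against 39.7% of all genes, with a median deviation of 0.39 against -0.18 in each of the others. Junb (5.14 ± 0.25) and Nr4a1 (5.66 ± 0.15) were below the reference level, and Atf3 read 4.05, 5.88 and 5.66.

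Among 10 heat shock genes array 2 was highest in 2. Hspa8, the constitutive chaperone, read 13.59, 13.58 and 13.64 (rank 26), the narrowest range of the group, and Hsp90aa1 11.73 ± 0.09. The inducible Hspa1b read 7.79, 7.07 and 5.92 and Hspa1a 5.73, 4.25 and 4.54, with array 1 highest in both. Of the 10 genes 8 lay above the reference level, with a median of 11.72.

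Interferon response genes were above the reference level in 24 of 31 cases, with a median of 8.51. B2m, the light chain of MHC class I, read 13.36, 13.37 and 13.58 (rank 38), and Psmb8, an immunoproteasome subunit, 11.60 ± 0.18. Ifit1, an antiviral gene, read 7.71 ± 0.34, and Irf7, the regulator of the type I response, was below the reference level at 5.83 ± 0.27. Summed intensity was 31300, 31700 and 31700. Above the reference level Bst2 had the narrowest range and Irgm1, an interferon-induced GTPase, the widest at 0.91.

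**Figure D3:**
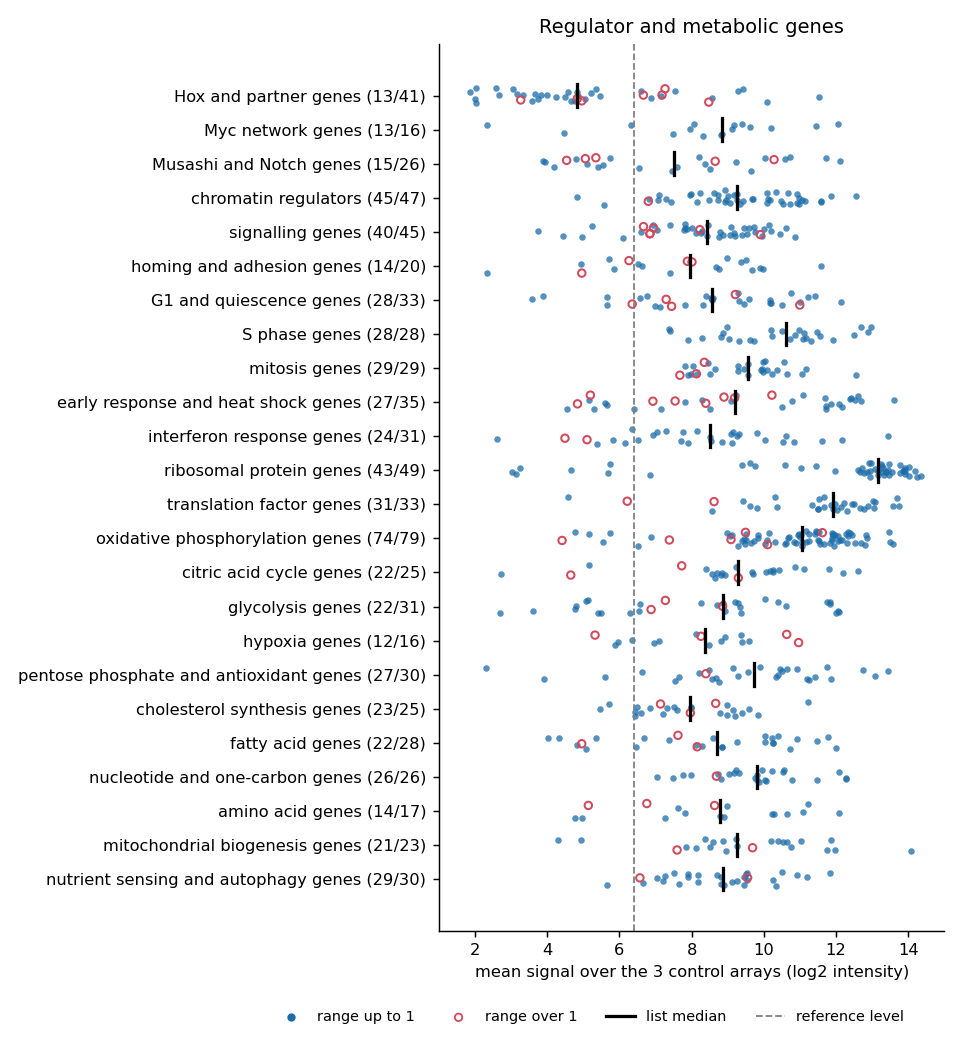
Mean log2 intensity over the 3 control arrays for each measured gene of 24 groups of regulator and metabolic genes; brackets give genes above the reference level of genes measured, open circles are genes with a range over 1, bars are group medians and the dashed line is the reference level of 6.41. Ribosomal protein genes lie farthest right with a median of 13.16 and no open circle, and the Hox and partner genes farthest left with 4.84.

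Translation factors followed the ribosomal genes. Of 33 measured 31 lay above the reference level, with a median of 11.92. Npm1, a ribosome assembly chaperone, read 13.74 ± 0.06, the elongation factors Eef1a1 and Eef2 13.69 ± 0.03 and 13.01 ± 0.07, Tpt1 13.58 ± 0.07 and Ncl, nucleolin, 12.65 ± 0.10. Eif4a1, an initiation helicase, read 12.03 ± 0.04, Pabpc1, the poly(A)-binding protein, 11.96 ± 0.20, the cap-binding Eif4e 9.41 ± 0.10 and its inhibitor Eif4ebp1 8.57 ± 0.05. Eef1a2, the muscle and neuron form of Eef1a1, was below the reference level at 4.57 ± 0.09. Nop56 was the steadiest with a range of 0.01, and Eif4ebp2 the widest of those above the reference level with 1.15.

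Genes of the respiratory chain were present as a block. Of 79 measured 74 lay above the reference level, with a median of 11.06: 33 of 35 of complex I, 4 of 4 of complex II, 9 of 9 of complex III, 13 of 16 of complex IV and 15 of 15 of ATP synthase. Atp5a1 read 13.53, 13.66 and 13.55 (rank 28), the complex II flavoprotein gene Sdha 12.43 ± 0.05, or 11.11 without cross-hybridising probe sets, and Sdhb 9.85 ± 0.07. Cox4i1 read 11.89 ± 0.23, Ndufb8 10.59 ± 0.08, Ndufs1 9.27 ± 0.23 and Uqcrc1 9.06 ± 0.28. Of the tissue-restricted subunits, Cox4i2 (5.53 ± 0.41) and Cox8b (4.78 ± 0.32) were below the reference level and Cox6a2, the heart and muscle form, was just above it at 6.51 ± 0.17. Array 1 was highest in 56 of the 79, against 36.7% of genes above the reference level, and the summed intensity was 244000, 213000 and 219000. Atp5h had the narrowest range, 0.01, and Cox7a2 the widest above the reference level, at 12.15, 11.01 and 11.70.

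Citric acid cycle genes and those of pyruvate entry lay above the reference level in 22 of 25 cases, with a median of 9.29. Mdh2, malate dehydrogenase, read 12.62 ± 0.03, Cs, citrate synthase, 11.12 ± 0.24, Idh2 10.25 ± 0.18 and Pdha1, a subunit of pyruvate dehydrogenase, 10.05 ± 0.11. Of the kinases that shut pyruvate dehydrogenase, Pdk1 read 10.12, 9.92 and 10.43, while Pdk4 was below the reference level at 4.65 ± 0.61, as was the testis form Pdha2 at 2.73 ± 0.43. Idh3g had the narrowest range, 0.01, and Mpc1, a pyruvate carrier, the widest above the reference level at 8.33, 6.74 and 8.09.

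Glycolysis genes were above the reference level in 22 of 31 cases. Ldha read 12.18, 12.10 and 11.94, Pgk1 12.04 ± 0.10, Pkm 11.84 ± 0.10 and Aldoa 11.73 ± 0.20. Ldhb read 10.61 ± 0.39 and Pfkp 9.37 ± 0.27. Of the hexokinases, Hk3 was at 9.21 ± 0.20, Hk1 at 8.87 ± 0.25 and Hk2 at 8.71 ± 0.22. The testis forms Ldhc (4.80 ± 0.07), Gapdhs (4.76 ± 0.32) and Pgk2 (3.60 ± 0.33) and the muscle form Pgam2 (5.48 ± 0.10) were below the reference level. Of the transporters, the glucose carriers Slc2a3 and Slc2a1 read 10.38 ± 0.28 and 10.03 ± 0.27, with Slc2a3 at 7.56 without cross-hybridising probe sets, and the lactate carrier Slc16a1 9.28 ± 0.13, and Slc2a2 of liver was at 2.71 ± 0.14. Pklr, the red cell and liver pyruvate kinase, had the widest range of the group at 9.02, 10.05 and 7.51, and Pgam1 the narrowest at 0.05.

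Of the hypoxia genes 12 of 16 lay above the reference level. Hif1a, the hypoxia-induced factor of stem cells, read 8.65, 8.74 and 9.07, and its relative Epas1 was not above the reference level at 5.89 ± 0.45. Cited2, a Hif1a inhibitor needed by stem cells, read 10.82, 10.03 and 11.04. Vegfa read 7.09 ± 0.16 and Car9, a classic hypoxia target, 6.95 ± 0.05. Bnip3, which drives removal of mitochondria, had the widest range above the reference level at 8.53, 7.57 and 8.67, with array 2 lowest, and Egln2 the narrowest at 0.06. Ddit4, an inhibitor of mTOR, read 10.30, 11.25 and 11.34, with array 1 lowest.

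Pentose phosphate and antioxidant genes lay above the reference level in 27 of 30 cases, with a median of 9.73. Sod1, the cytosolic superoxide dismutase, read 13.07 ± 0.07, Gpx1, a glutathione peroxidase, 12.75 ± 0.12 and Txn1, thioredoxin, 11.87 ± 0.16. Tkt, transketolase, was highest at 13.45 ± 0.11. Txnrd1 had the narrowest range, 0.13, and Gsta4, with 1.02, was the only gene of the 30 with a range over 1.

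Of 25 cholesterol genes 23 lay above the reference level, but at modest signal, with a median of 7.96. Hmgcs1, an early enzyme of the pathway that forms HMG-CoA, stood out at 11.54, 10.95 and 11.20. Insig1, the sterol sensor's anchor, read 9.15 ± 0.34, Dhcr7, the last enzyme of the pathway, 8.98 ± 0.32, Srebf2, its master regulator, 7.99 ± 0.23 and Sqle 7.60 ± 0.17. Fdft1, squalene synthase, had the widest range at 8.77, 9.21 and 8.01 and Scap the narrowest at 0.22. CCAAT on either strand stood in 13 of 14 promoter windows of this group (92.9%), and the GC box GGGCGG, on either strand, in 14 of 14, against 52.3% of the 10742 genes and 32.7% of all windows. The stretches around the CCAAT nearest the start are shown for the named genes with 1 window, in the same form as for the mitosis genes.
Hmgcs1 (chr13:119690288-119690328, plus strand): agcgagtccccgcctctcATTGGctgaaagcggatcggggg
Srebf2 (chr15:82147116-82147156, plus strand): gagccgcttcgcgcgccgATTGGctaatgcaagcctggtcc
Insig1 (chr5:28071178-28071218, plus strand): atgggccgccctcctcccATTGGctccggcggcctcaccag

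Fatty acid genes lay above the reference level in 22 of 28 cases. Scd2, a desaturase, read 10.38 ± 0.23, Cpt1a, the gate of mitochondrial fat oxidation, 10.24 ± 0.08, Hadha 10.02 ± 0.17 and Fasn 7.38 ± 0.07. The fat carrier Cd36 (4.33 ± 0.18) and Ppargc1a (4.82, 5.95 and 4.10), a coactivator of mitochondrial genes, were below the reference level. Ppard had the narrowest range, 0.02, and Pml, which supports fat oxidation in stem cells, the widest above the reference level at 7.76, 8.93 and 7.76.

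All 26 nucleotide and one-carbon genes lay above the reference level, with a median of 9.81. Phgdh, the entry to serine synthesis, read 12.30, 12.30 and 12.25, Paics, a purine enzyme, 12.28 ± 0.03 and Odc1, which starts polyamine synthesis, 12.07 ± 0.12. Shmt2 read 10.52 ± 0.18 and Mthfd2 7.48 ± 0.22, both mitochondrial folate enzymes, with Shmt2 at 8.76 without cross-hybridising probe sets. Cad, the enzyme that opens pyrimidine synthesis, had the widest range at 8.73, 8.03 and 9.29.

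Of the amino acid genes 14 of 17 lay above the reference level. Glud1 read 11.21 ± 0.03, the stress factor Atf4 10.63 ± 0.13, the heavy chain Slc3a2 and light chain Slc7a5 of the leucine carrier 8.98 ± 0.19 and 8.77 ± 0.11, and Asns 7.62 ± 0.43. Slc1a5, the glutamine carrier, had the widest range at 8.27, 9.88 and 7.75. Arg1 (4.98 ± 0.44) and Bcat1 (4.76 ± 0.19) were below the reference level. Glud1 also had the narrowest range, 0.06.

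Mitochondrial upkeep and nutrient sensing completed the profile, with 21 of 23 and 29 of 30 genes above the reference level. Vdac1 read 14.05, 14.07 and 14.07, the adenine nucleotide carrier Slc25a5 11.97 ± 0.17, the mitochondrial transcription factor Tfam 8.86 ± 0.23 and the fusion protein Mfn2 8.36 ± 0.27, and Ucp1 of brown fat was below the reference level at 4.29 ± 0.22. Polrmt, the mitochondrial RNA polymerase, had the widest range, 1.18. The ETS-type motif CCGGAAG stood in 7 of 16 promoter windows of the mitochondrial group (43.8%), against 11.3% of the 10742 genes. Among those of the 10742 with a signal from 9.06 to 10.13, where the group's median lies, it was 17.8%. The group was picked from many, and its share was not tested. Among nutrient sensors, Stk11 read 9.46 ± 0.21, Tsc1 9.45 ± 0.07, Mtor 9.12 ± 0.23 and Prkaa1, the catalytic subunit of AMPK, 6.76, 5.67 and 7.27, the widest of that group. Of the autophagy and lysosome genes, Lamp1 read 11.19 ± 0.02 and was the steadiest, Ctsd 9.26 ± 0.08, Atg7 7.50 ± 0.21 and Atg5 7.25 ± 0.29. Atg5 without cross-hybridising probe sets read 5.91, below the reference level.

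Across the profile, 1987 of 18193 genes (10.9%) had a range over 1 between arrays, and 930 of the 9113 above the reference level (10.2%) did. With genes divided by signal into 10 equal classes, the share was 2.09% in class 1, the lowest, 23.6% in class 5, 21.7% in class 6 and 1.65% in class 10, the highest, with a median range of 0.27 there. Correlation across genes, which are not independent replicates, was 0.9795 between arrays 1 and 2, 0.9892 between 1 and 3 and 0.9808 between 2 and 3. Among genes above the reference level, the pair without array 2 differed by over 1 in 157 (1.72%), against 608 (6.67%) for arrays 1 and 2 and 560 (6.15%) for arrays 2 and 3. Of the 930 genes, array 2 lay farthest from the other two in 622 (66.9%), above them in 255 and below them in 367.

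The 15 widest ranges above the reference level held several immunoglobulin and granule genes. Igk read 11.64, 6.01 and 8.23, Igkv8-30 11.46, 7.99 and 9.31 and Igha, the heavy chain of IgA, 10.97, 7.51 and 7.28, all with array 1 highest. Prg2, Epx and Vpreb1 have been given above. Array 2 was lowest in Pde2a (8.71, 5.24 and 8.72), a phosphodiesterase, in Zfand2a (8.68, 6.29 and 9.41), in Lmna, nuclear lamin A (8.04, 5.29 and 8.16), and in Col5a1 (7.52, 4.65 and 7.20), Mgam (8.74, 5.92 and 7.71) and Zfp318 (8.74, 5.97 and 8.30). It was highest in Plekhg3 (6.35, 8.86 and 5.64) and in Lat2, an adaptor of mast and B cells (7.66, 10.35 and 7.58). Hoxb5os, the antisense transcript of the Hoxb5 locus, read 7.93, 9.01 and 10.79, with array 3 highest. Pde2a without cross-hybridising probe sets read 5.27.

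At the other end, 9 genes above the reference level had the same value in all 3 arrays: the RNA helicase Dhx9 at 11.85, Mtm1 at 11.36, Tspan31 at 10.74, Twistnb at 10.60, Gps1 at 8.89, Klhl22 at 8.33, Clasp1 at 7.80, Prdm2 at 7.50 and Tmie at 6.63. Bri3 came next with a range of 0.0035.

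Groups differed in whether array 2 leaned above or below the others. Its median deviation from the mean of the 3 arrays was -0.58 in mature neutrophil genes, -0.38 in primary granule genes, -0.22 in mast cell, basophil and eosinophil genes and 0.39 in early response genes, against 0.00 in stem cell genes and 0.03 in S phase genes. A median near 0 does not mean that the arrays were close, since genes on both sides cancel. Of the 51 stem cell genes, array 2 was highest in 19 and lowest in 19. In genes of other organs array 2 was highest in 90 of 168, against 39.7% of all genes, with a median deviation of 0.09. Of these 168 genes, 159 were not above the reference level. Array 2 was highest in 34.8% of the genes above that level, so the 39.7% is not the share of genes with low signal. The signal at the 3′ end of Gapdh exceeded that at its 5′ end by 2.14, 2.60 and 2.40, and for beta-actin by -0.15, -0.15 and 0.01. Array 2 thus had the largest Gapdh difference and the lowest granule signals, and the part of either in the other differences between arrays was not tested.

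**Figure D4:**
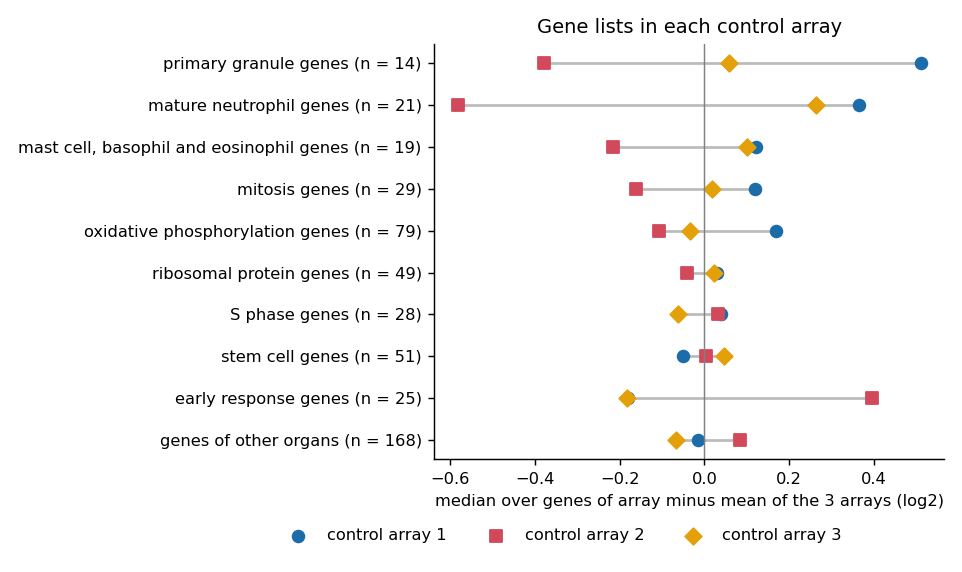
Median over the genes of each group of the log2 signal in a control array minus the mean of the 3 arrays, for 10 groups; circles are array 1, squares array 2 and diamonds array 3, with the number of genes in brackets. Array 2 is lowest in the primary granule (-0.38) and mature neutrophil groups (-0.58) and highest in the early response group (0.39), and the stem cell group spans -0.05 to 0.05.

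Promoter sequence differed along the profile. Over the 10742 protein-coding genes with 1 window of 300 bases (250 before and 50 after the start), the share with a TATAA in place was 12.4% in class 1 by signal, 0.969% in class 8 and 2.45% in class 10. The GC box GGGCGG went the other way, from 24.1% to 64.6%, and the ETS-type CCGGAAG from 2.02% to 18.7%. Median GC content was 48.0% in class 1 and 60.8% in class 10, and the ratio of observed to expected CpG 0.27 and 0.81. Among genes above the reference level TATAA was found in 22 of 551 with a range over 1 (3.99%) and in 84 of 5299 with a smaller range (1.59%). Within classes of signal these shares were 2.76% against 2.02% in class 6, 5.67% against 1.25% in class 7, 4.08% against 0.675% in class 8, 2.50% against 1.56% in class 9 and, with 2 of 17 genes, 11.8% against 2.31% in class 10. In class 5, which lies almost wholly below the reference level, they were 0.775% against 4.69%.

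The other motifs searched, on both strands, were the E-box CACGTG, the GATA-type AGATAA, the CRE TGACGTCA and the RUNX-type TGTGGT, which 6.02%, 9.99%, 1.55% and, for the last, 4613 of 32841 of all windows held. AGATAA stood in 14.2% of class 1 and 5.32% of class 10, in 5 of 13 mast cell, basophil and eosinophil genes (38.5%), 5 of 19 neutrophil genes (26.3%) and 5 of 22 erythroid genes (22.7%). TGTGGT stood in 6 of those 13 (46.2%), 4 of 12 primary granule genes (33.3%) and 4 of 13 T and NK cell genes (30.8%). CACGTG stood in 3 of 11 Myc network genes (27.3%) and 4 of 14 cholesterol genes (28.6%). It also stood in 6 of 21 nutrient sensing and autophagy genes (28.6%) and 3 of 13 hypoxia genes (23.1%). Over the 10742 genes the shares were 7.17% for AGATAA, 11.5% for TGTGGT and 7.75% for CACGTG. The groups named were picked from many, have few windows each and were not tested. A motif in these letters is not evidence of binding.

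**Figure D5:**
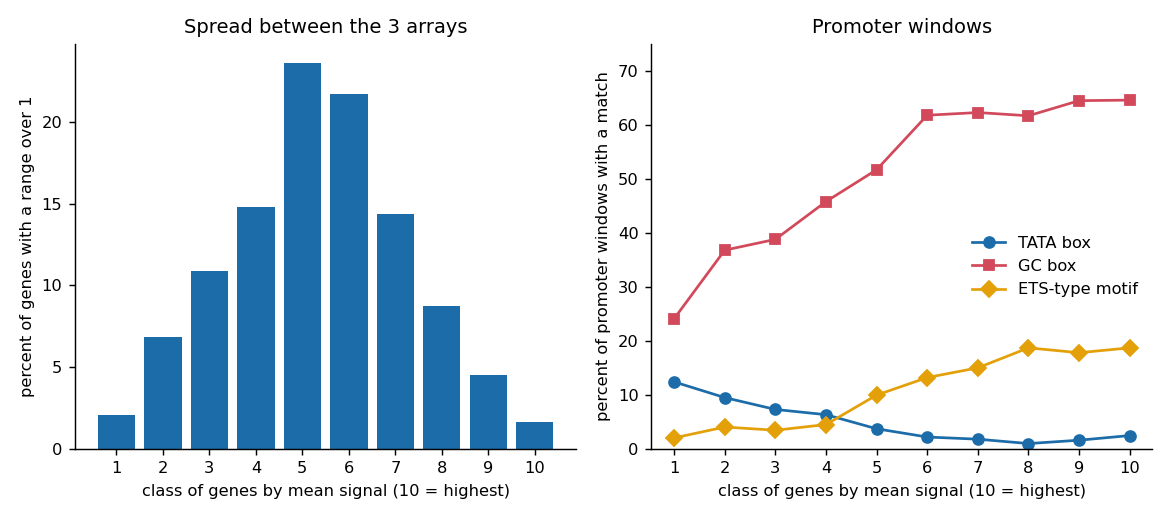
Left, percent of genes with a range over 1 between the 3 control arrays in each of 10 equal classes of genes by mean signal, with 10 the highest; right, percent of genes in each class whose promoter window holds the TATA box, the GC box or the ETS-type motif. The left bars run from 2.09% through 23.6% in class 5 to 1.65%, and on the right the GC box runs from 24.1% to 64.6% while the TATA box runs from 12.4% to 2.45%.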

How the data were processed

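RNA of sorted bone marrow cells was measured on 3 control rtTA arrays, and 2 arrays of MSI2-inducible mice were left out. The authors deposited 1 intensity per probe set and array on a linear scale. RMA, affy and R 2.11.0 are named per the submitters' processing notes, and the sources used here do not give how RMA values came back to a linear scale. Of 45101 probe sets, 64 control sets were dropped, 34958 carry 1 symbol, 932 several and 9211 none. Symbols were updated by Entrez ID through the GRCm38.p6 gene table for 34754. Intensities were put on the log2 scale without a pseudocount or another normalization; array medians were 47.8, 47.8 and 48.3. The brightest probe set of each gene over the 3 arrays was kept, for 18193 genes, 9010 of which had several. The reference level was the 95th percentile of 168 genes of other organs. As there is 1 group, no test was run.

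The genes named were Kit, Ly6a, Hlf, Mecom and Myc, starred members of the gene lists, each list's widest and narrowest range above the reference level, the 20 highest means, the 15 widest and 10 narrowest ranges above the reference level, and the 5 list members on either side of it. Some further list members were named after their values were seen. Members and lists were chosen with earlier results of these data known, and motifs after promoter windows had been read. Of 1154 list members outside the reference list, 1020 were measured. Promoter sequences are RefSeq's, build GRCm38.p6, for 10742 genes with 1 window. Python 3.11.15, numpy 2.4.6, pandas 2.3.3, scipy 1.17.1 and matplotlib 3.10.9 were used. The steps were tested on simulated data of 18193 genes, where all 200 genes given a difference of 3 between arrays were found and 0 others. The simulated noise was set smaller than the spread of the real arrays. This outcome therefore checks the code and says nothing on how many real ranges over 1 are noise. Alternatives were other choices of probe set, reference level and scaling, and each array left out; the counts per list without an array were added after seeing the data.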

Additional observations from a re-analysis of the deposited data

How the results depend on the processing

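The number of genes above the reference level, 9113, lay between 8823 and 9295 with each array left out, and 8694 of the genes stayed above it each time. It was 9400 with the mean of all probe sets of a gene, 9179 without cross-hybridising probe sets, 9122 after quantile scaling, 9113 with arrays set to the same median and 9082 from linear means. It was 10393 with the 90th percentile of the other-organ genes as reference, and 12111 with the 95th percentile of 77 sensory receptor genes, 4.84. That lower reference raised counts by over 1.5 times to 5 for lineage antigens, 9 for B cell, 8 for T and NK cell, 13 for mast cell, basophil and eosinophil, 10 for endothelium and stroma, 21 for Hox and partner and 1 for Y chromosome genes. The median of all probe sets, 5.57, as reference also gave 13 mast cell, basophil and eosinophil genes. The count of genes with a range over 1, 1987, ran from 527 without array 2 to 1263 without array 3, with 1204 without array 1 and probe sets chosen anew; it was 930 among genes above the reference level. The lowest correlation between arrays, 0.9795, was 0.9396 among those genes.

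Taking the mean of all probe sets moved 159 of 327 named levels by more than their SD, and leaving out cross-hybridising probe sets 32 of 318. The remaining named genes, Procr and S100a8 among them, had only cross-hybridising probe sets. Without these, Rpl41 was at 8.57, Vdac1 at 11.42, Ran at 11.37, Rpl13a at 12.43, Pebp1 at 13.15, Rpl35 at 13.05, Gas5 at 13.16, Atf4 at 9.58, Mcm5 at 10.21, Odc1 at 11.32, Myb at 11.85, Fbxw7 at 8.71 and Igll1 at 4.32, and Lmna at 5.98 and Mvd at 5.42 were below the reference level. No paired analysis was possible because only 1 group was used. Signal near background, 3 arrays and unequal probe strength limit every level, and the lists hold what the array names.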

Other observations

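Of the 16473 protein-coding genes of the profile, 8885 (53.9%) lay above the reference level, against 174 of 1458 long non-coding RNA genes (11.9%). Of genes on the X chromosome 273 of 618 (44.2%) lay above it. Xist, the RNA that silences an X chromosome in female cells, read 12.64, 12.69 and 12.90 in control arrays 1, 2 and 3. The Y-linked genes Kdm5d and Eif2s3y read 6.65, 2.35 and 5.40, and 5.91, 3.89 and 5.49. Of 9 measured genes of the Y chromosome 1 had a mean above the reference level, Sry, the testis-determining gene, at 7.15, 7.13 and 7.07. The labels give no sex.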
